A study of Mus musculus with 48 samples.

Results

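The genes described here encode both receptors of the calcitonin family, Calcr and Calcrl, their 3 accessory proteins, Ramp1, Ramp2 and Ramp3, and 1 of the peptides that acts through them, adrenomedullin (Adm). These 6 genes, of 25229 gene symbols in the deposited count table, were taken by name. They were chosen by measured values: Ramp2 differed between genotypes at ZT22 in the arcuate nucleus, and the other 5 belong to the same receptor system. The ZT22 difference of Ramp2 is therefore given as a description with no test. The study measured RNA by sequencing in the arcuate nucleus of the hypothalamus and in left nodose ganglia of male C57Bl/6J mice, 10 to 12 weeks old. Every mouse, controls included, carried floxed alleles of Rev-erba and Rev-erbb, the circadian repressors also named Nr1d1 and Nr1d2. Control mice received AAV8-TBG-EGFP and HepDKO mice received AAV8-TBG-Cre by tail vein at 6 to 10 weeks of age, and tissue was taken 2 to 4 weeks later. TBG is a promoter active in hepatocytes, so the deletion was made in the liver and the levels of Nr1d1 and Nr1d2 in the 2 tissues sequenced do not check the labels.

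Mice were fed chow freely at 27 C under 12 h of light and 12 h of darkness, and were sampled at Zeitgeber times (ZT, hours after lights on) 4, 10, 16 and 22. Each of the 16 groups held 3 libraries, giving 24 libraries a tissue and 48 in all. A library was made from a pool of animals: 4 mice for nodose ganglia, and 3 mice for the arcuate nucleus by the protocol or 3 to 4 by the design text. Tests between pools measure the spread between pools, and differences among single mice were not seen. The arcuate libraries were prepared and sequenced by a service company and the nodose libraries with a ribosomal RNA depletion kit, so tissue, library preparation and depth cannot be told apart.

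Calcitonin-family peptides signal through class B G protein-coupled receptors whose ligand preference is set by receptor activity-modifying proteins (RAMPs), single-pass membrane proteins that bind the receptor. The calcitonin receptor-like receptor, encoded by Calcrl, reaches the cell surface only with a RAMP: with RAMP1 it is the receptor for calcitonin gene-related peptide (CGRP), and with RAMP2 or RAMP3 it is a receptor for adrenomedullin. The calcitonin receptor, encoded by Calcr, binds calcitonin on its own and becomes an amylin receptor with a RAMP. In the arcuate nucleus amylin receptors are known for their part in satiety. Adrenomedullin with CALCRL and RAMP2 is known for the formation and barrier of blood and lymph vessels.

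Total counts per library were 15483922 to 20399718 in the arcuate nucleus and 1813994 to 10422914 in the nodose ganglia. The shallowest library was the nodose Control ZT4 replicate 1. Levels are given as counts scaled to library size (CPM), computed within each tissue. Counts of Xist, a transcript of the inactive X chromosome, were 1914 in arcuate HepDKO ZT10 replicate 3 and 1694 in nodose HepDKO ZT10 replicate 2, against at most 13 in any other library, although every sample is labelled male. Leaving out either library changed no call of a member in the tests over all 4 times, of rhythm or between tissues, and the genotype differences are given below with and without it. The correlations were not recomputed without it. The arcuate libraries held 2530 to 3007 CPM summed over 6 neuronal markers and 233 to 368 CPM over 7 arcuate neuron markers. The nodose libraries held only 15.9 to 75.1 CPM of the same neuronal markers. They held 10732 to 29509 CPM of 5 Schwann cell markers, 3454 to 65313 CPM of 5 skeletal muscle markers and 4690 to 8702 CPM of 5 fibroblast markers. The nodose values below are therefore levels in dissected tissue with few neuronal transcripts. Within such tissue, fewer cells of a type and less RNA per cell cannot be told apart.

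The promoter windows of Ramp1 and Calcr are shown because these are the member that varied over the day in the arcuate nucleus and the member that differed most between tissues. Each is the 250 bases upstream of an annotated start in RefSeq, build GRCm38.p6, written 5′ to 3′ on the gene's strand. The Ramp1 window lies at chr1:91179572-91179821 on the + strand. The 2 Calcr windows lie at chr6:3763624-3763873 and chr6:3764714-3764963 on the - strand. Capitals mark GGGCGG or its reverse complement, the GC box.
Ramp1: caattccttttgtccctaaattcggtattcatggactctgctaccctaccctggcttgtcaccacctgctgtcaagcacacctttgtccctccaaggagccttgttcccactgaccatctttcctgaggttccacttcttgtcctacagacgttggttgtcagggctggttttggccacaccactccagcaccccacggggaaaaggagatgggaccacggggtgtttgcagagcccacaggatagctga
Calcr, window 1: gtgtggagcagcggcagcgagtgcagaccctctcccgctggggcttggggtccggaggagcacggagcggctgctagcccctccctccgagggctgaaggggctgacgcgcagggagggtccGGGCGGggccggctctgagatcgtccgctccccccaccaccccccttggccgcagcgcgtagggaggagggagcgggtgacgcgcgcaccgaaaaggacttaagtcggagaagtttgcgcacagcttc
Calcr, window 2: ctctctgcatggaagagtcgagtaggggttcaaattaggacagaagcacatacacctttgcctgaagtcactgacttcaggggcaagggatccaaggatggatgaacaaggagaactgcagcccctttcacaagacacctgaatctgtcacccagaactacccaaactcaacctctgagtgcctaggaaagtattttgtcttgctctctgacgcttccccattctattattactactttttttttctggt
Beside the GC box, the windows were searched on both strands for 4 motifs. The E-box, bound by clock activators, was searched as CACGTG and was present in 6.02% of 32851 mouse windows of this length. The half-site bound by REV-ERB and related nuclear receptors was searched as AGGTCA and was present in 14.0% of them. The response element of cyclic AMP signalling was searched as TGACGTCA and was present in 1.55%. The core promoter element searched as TATAAA was present in 12.4%, and the GC box in 32.7%. Of the 3 windows printed, only Calcr window 1 held any of these motifs, with 1 copy of the GC box. Calcr window 1 had 70.8% G or C and 24 CpG dinucleotides, Calcr window 2 had 46.0% and 2, and the Ramp1 window had 54.0% and 4. The windows of Ramp3, Calcrl and Adm held 3, 1 and 1 copies of the GC box and none of the other motifs. The search describes the letters of these windows and nothing about the factors that bind such motifs.

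In the arcuate nucleus Ramp1 and Calcr were the most abundant transcripts of the family, and adrenomedullin was the scarcest. To compare genes, CPM was divided by the length of the longest RefSeq-linked transcript. Ramp1 had a median of 16.9 CPM per kb (range 14.1 to 21.9 over 24 libraries), the highest of the 6 genes. Calcr followed with 11.7 (7.81 to 14.6) and Ramp2 with 7.71 (5.72 to 10.5) CPM per kb. Ramp3 had 3.44 (1.40 to 7.18), Calcrl 2.35 (1.93 to 2.83) and Adm 0.676 (0.403 to 1.47) CPM per kb. The ranges of neighbours overlapped for Ramp1 and Calcr, Calcr and Ramp2, Ramp2 and Ramp3, and Ramp3 and Calcrl. Those of Calcrl and Adm did not overlap. The place of Ramp2 depends on the length used: with the union of all its annotated exons, 3.301 kb in place of 1.178 kb and partly shared with Vps25, arcuate Ramp2 had a median of 2.75 CPM per kb, below Ramp3 at 3.07.

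**Figure D1:**
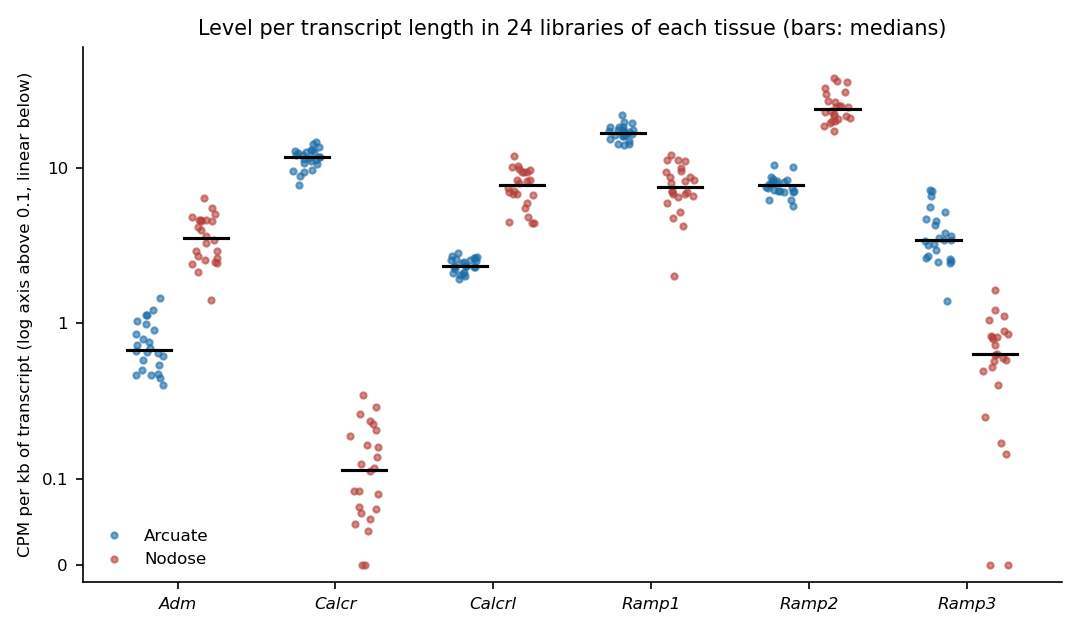
Levels of the 6 genes in CPM per kb of transcript in each library (log axis above 0.1, linear below), arcuate nucleus and nodose ganglia, with the median of 24 libraries marked. Ramp1 (median 16.9) and Calcr (11.7) led in the arcuate nucleus and Ramp2 (23.8) led in the nodose ganglia, where Calcr had a median of 0.115.

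The order was different in the nodose ganglia, with Ramp2 at the top and Calcr at the bottom. Ramp2 had a median of 23.8 CPM per kb (17.2 to 37.7), above every library's value for the other 5 genes. With the union of exons it had 8.50 (6.12 to 13.5), and its range then overlapped those of Calcrl (4.42 to 12.0) and Ramp1 (1.55 to 9.29). Calcrl had 7.72 (4.42 to 12.0), Ramp1 7.56 (2.02 to 12.1) and Adm 3.54 (1.41 to 6.36) CPM per kb, and these 3 ranges overlapped. Ramp3, at 0.632 (0 to 1.64), and Calcr, at 0.115 (0 to 0.344), were near the lower limit of the libraries. Nodose Calcr had 0 to 9 counts per library and nodose Ramp3 had 0 to 10, with 2 libraries at 0 for each gene. For Calcr those were Control ZT22 replicate 3 and HepDKO ZT10 replicate 3, where 0 counts allow up to 0.720 and 0.445 CPM. For Ramp3 they were Control ZT16 replicate 3 and HepDKO ZT10 replicate 1, with limits of 1.04 and 0.597 CPM. These limits cover counting error only. Both genes were below the filter on low counts in the nodose ganglia and enter no test within that tissue.

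The make-up of the RAMP pool differed accordingly. Per length, Ramp1 made up a median of 60.5% of the 3 RAMP transcripts in the arcuate nucleus (49.3 to 67.3%), Ramp2 26.5% and Ramp3 12.5%. In the nodose ganglia Ramp2 made up 74.1% (61.7 to 94.7%), Ramp1 22.3% (5.26 to 35.8%) and Ramp3 2.10%. The nodose level of Ramp1 moved with the skeletal muscle markers of the library (r = 0.943, described below), so these nodose shares are those of the dissected tissue. With the union of exons these medians were 68.7, 14.1 and 16.9% for Ramp1, Ramp2 and Ramp3 in the arcuate nucleus, and 36.9, 56.5 and 3.96% in the nodose ganglia. Calcr made up 83.0% of the 2 receptor transcripts in the arcuate nucleus (78.9 to 86.8%) and 1.59% in the nodose ganglia (0 to 5.57%). The summed RAMP level was 2.01 times the summed receptor level in the arcuate nucleus and 4.28 times in the nodose ganglia, as medians over libraries. RAMP transcripts thus outnumbered receptor transcripts in both tissues, by these medians and in every library (lowest ratio 1.48 in the arcuate nucleus and 2.82 in the nodose ganglia, or 1.05 and 1.36 with the union of exons).

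The tissues were compared in Control mice with the quasi-likelihood F test of edgeR, with p-values adjusted by the method of Benjamini and Hochberg over 17478 genes. Of all genes 88.4% were called, 43.5% higher and 44.8% lower in the nodose ganglia. Calcr and Ramp3 passed the joint filter through the arcuate libraries alone, so their differences are given with no test. Of the other 4 members 3 were called higher and 1 lower, and the count is read as no more than the background. The CPM levels beside each difference are means over all 24 libraries of a tissue, scaled within that tissue. The fit scaled all 48 libraries together, so the ratio of the printed levels is offset from the fitted difference.

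Calcr, the calcitonin and amylin receptor, had 43.7 ± 6.39 CPM (SD) in the arcuate nucleus and 0.495 ± 0.346 CPM in the nodose ganglia. The fitted difference in Control mice was -6.24 on the log2 scale (SE 0.182), and 9.09% of all genes were called lower in the nodose ganglia by more than 4. Ramp3, an accessory protein for adrenomedullin and amylin receptors, had 4.77 ± 1.89 and 0.808 ± 0.480 CPM, a difference of -2.38 (SE 0.304). Nodose counts of both genes were near 0, so these fitted values are imprecise at the lower end. Ramp1, the CGRP receptor's accessory protein, was lower in the nodose ganglia by 0.93 (SE 0.124, adjusted p = 8.49e-09), from 39.5 ± 4.26 to 18.1 ± 5.68 CPM.

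Adm, Ramp2 and Calcrl were higher in the nodose ganglia, opposite to Ramp3, the other RAMP that makes Calcrl an adrenomedullin receptor. Adm, the ligand, was higher by 2.48 on the log2 scale (SE 0.207, adjusted p = 1.71e-14), from 1.05 ± 0.391 to 5.09 ± 1.72 CPM. Ramp2 was higher by 1.87 (SE 0.0907, adjusted p = 2.35e-22), from 9.12 ± 1.29 to 29.7 ± 6.91 CPM. Calcrl, the shared receptor of CGRP and adrenomedullin, was higher by 1.84 (SE 0.126, adjusted p = 1.04e-16), from 11.6 ± 1.19 to 37.6 ± 10.2 CPM. Beside these values stand 587 to 1119 CPM summed over 10 endothelial markers in the nodose libraries, against 151.9 to 222.6 CPM in the arcuate libraries. The 8 mural cell markers summed to 673 to 1473 CPM in the nodose ganglia and to 114 to 155 CPM in the arcuate nucleus. The part of vessel cells in the tissue difference was not tested.

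Other ligands of these receptors were scarce in both tissues. Calca, which encodes calcitonin and CGRP, had 3.55 CPM on average in the arcuate nucleus (2.43 to 4.96) and 0.413 CPM in the nodose ganglia (0 to 1.45). Calcb, the second CGRP gene, had 0.170 and 0.0227 CPM. Iapp, which encodes amylin, had 3 counts in all arcuate libraries together and none in the nodose libraries, where 0 allows up to 0.0198 CPM over the tissue. Adm2, which encodes intermedin, was at 0 in the arcuate libraries, which allows up to 0.00720 CPM, and averaged 0.00584 CPM in the nodose ganglia. Calca and Adm passed the filter on low counts in the arcuate nucleus and Adm alone did in the nodose ganglia.

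Over the day, 1 of the 6 genes in the arcuate nucleus had a 24-h component that passed the test, Ramp1, beside 3.86% of all 16102 genes tested (622). At ZT4 Ramp1 had 42.6, 39.5 and 40.7 CPM in Control libraries and 42.8, 45.6 and 51.0 CPM in HepDKO libraries. At ZT10 the values were 38.7, 38.0 and 40.6 CPM in Control and 45.4, 40.0 and 38.9 CPM in HepDKO. ZT4 libraries were thus at or above 39.5 CPM in both genotypes, with ZT10 overlapping them. At ZT16 Ramp1 had 42.8, 33.1 and 32.8 CPM in Control and 37.3, 38.4 and 34.8 CPM in HepDKO. At ZT22 it had 33.4, 40.8 and 35.9 CPM in Control and 40.2, 38.1 and 37.1 CPM in HepDKO. The dark-phase libraries lay below every ZT4 library except for Control ZT16 replicate 1, Control ZT22 replicate 2 and HepDKO ZT22 replicate 1.

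The fitted 24-h component of Ramp1 had a log2 amplitude, the height of the peak above the mean, of 0.14 (SE 0.033), and peaked at ZT5.42 (edgeR's quasi-likelihood test, adjusted p = 0.0409). From ZT16 to ZT4 the mean was 1.13 times as high in Control mice and 1.26 times in HepDKO mice. The fitted difference in rhythm between genotypes is a size without sign that joins differences in amplitude and in peak time. For Ramp1 it was 0.08 (SE 0.065, adjusted p = 0.999 in edgeR). The test of the Ramp1 rhythm itself was near its threshold. Leaving out single libraries lost the call in 16 of 24 cases, with adjusted p from 0.00398 to 0.107, the highest without Control ZT16 replicate 2. It was kept without Control ZT16 replicate 1, Control ZT22 replicates 1 or 2, any HepDKO ZT4 library, HepDKO ZT10 replicate 3 or HepDKO ZT22 replicate 1, and lost without each of the others. It was also lost with the mean log2 level of endothelial markers as a covariate (adjusted p = 0.0595) or that of mural cell markers (adjusted p = 0.0517), while the amplitude stayed at 0.14 with either. It passed in DESeq2 (adjusted p = 0.0155). Without the library with Xist counts the amplitude was 0.14 and the adjusted p 0.0400. Among the endothelial markers 3 of 10 were called rhythmic in the arcuate nucleus, Cldn5, Flt1 and Tie1, and among the mural markers 0 of 8, beside the 3.86% of all genes. The part of vessel cells in the Ramp1 rhythm was not tested further.

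**Figure D2:**
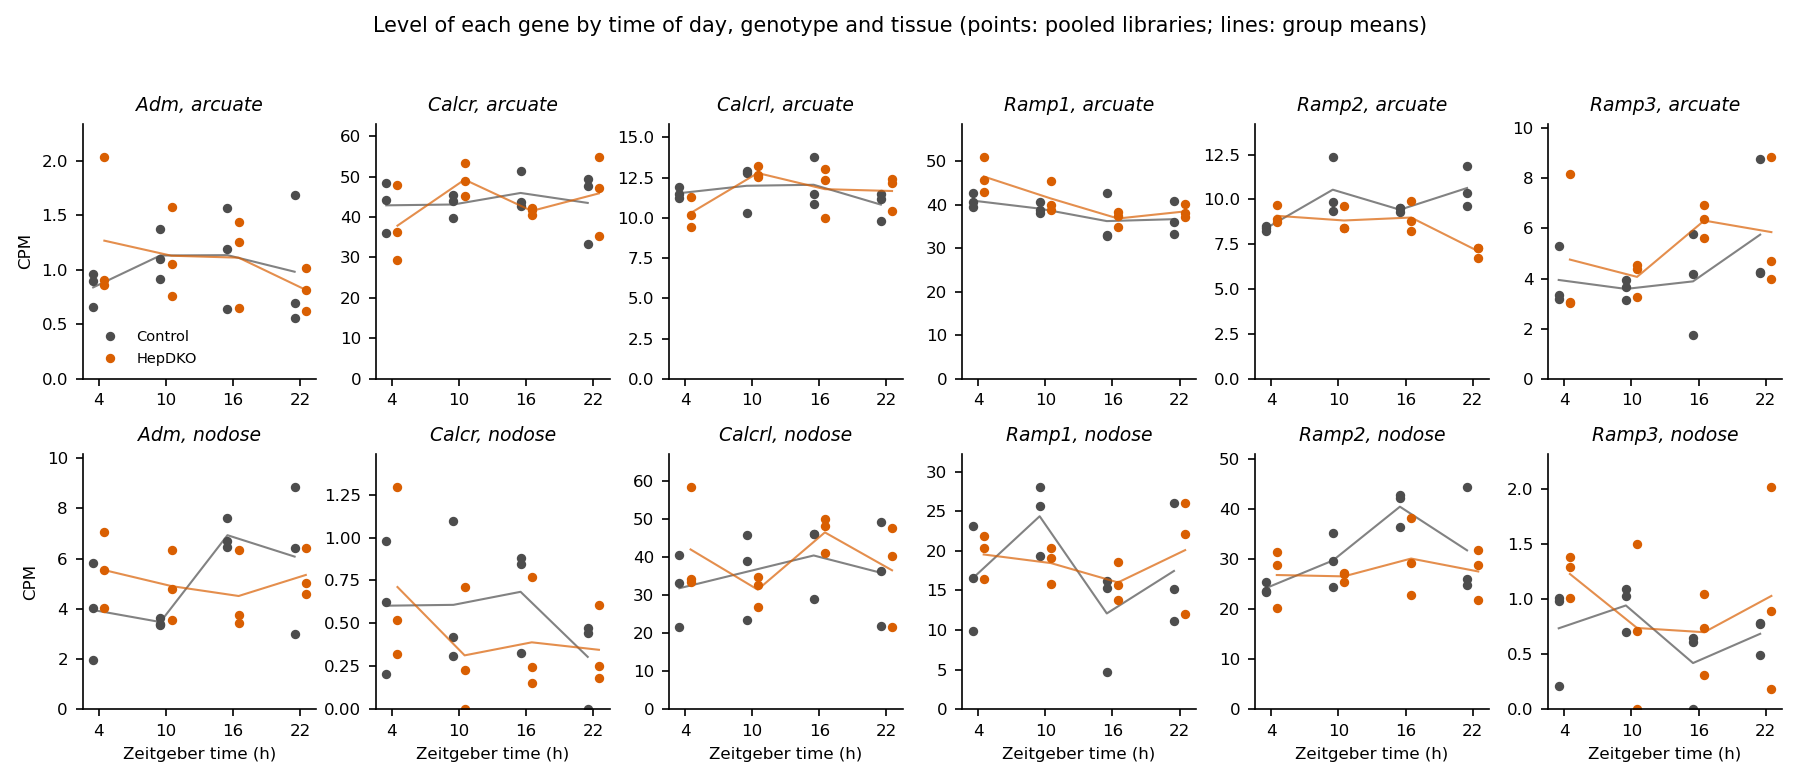
CPM of the 6 genes against Zeitgeber time (h) in the arcuate nucleus and the nodose ganglia, 1 point per library and a line through the means of 3 libraries for Control and HepDKO. Arcuate Ramp1 was highest at ZT4 (39.5 to 51.0 CPM), and arcuate Ramp2 in the 3 HepDKO libraries at ZT22 (6.74 to 7.31 CPM) lay below the 3 Control libraries (9.65 to 11.9 CPM).

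No other member passed the rhythm test in either tissue. In the arcuate nucleus the amplitudes on the log2 scale were 0.31 for Ramp3 (SE 0.151, adjusted p = 0.388), 0.18 for Adm (SE 0.157, adjusted p = 0.730) and 0.09 for Calcrl (SE 0.043, adjusted p = 0.341). Those of Ramp2 and Calcr were 0.08 (SE 0.043) and 0.06 (SE 0.061), with adjusted p of 0.402 and 0.776. In the nodose ganglia 1.33% of 14867 genes (198) passed the rhythm test and 0 of the 4 tested members did, in edgeR's quasi-likelihood test or in DESeq2. Ramp2 alone had an unadjusted p under 0.05 there, as 12.8% of genes did, with an amplitude of 0.23 (SE 0.079, adjusted p = 0.314) and a fitted peak at ZT16.7. Nodose Ramp2 had 23.6, 25.5 and 23.5 CPM at ZT4 and 36.6, 42.2 and 42.8 CPM at ZT16 in Control mice. In HepDKO mice it had 28.9, 31.4 and 20.2 CPM at ZT4 and 22.8, 38.3 and 29.3 CPM at ZT16. The ZT16 libraries lay above the ZT4 libraries in Control mice, as for 7.11% of genes, and overlapped them in HepDKO mice. From the group means, the amplitude was 0.37 in Control mice and 0.08 in HepDKO mice. The genotype difference in rhythm, which has no sign, was 0.29 (SE 0.157, adjusted p = 0.982 in edgeR). For the rhythm difference no gene passed in edgeR in either tissue, 382 arcuate genes (2.37%) and 421 nodose genes (2.83%) had an unadjusted p under 0.05, and DESeq2 called 1 arcuate gene and 0 nodose genes. No member was among these, with arcuate Ramp2 left out of the count since its rhythm difference uses ZT22. Without the nodose library with Xist counts the Ramp2 amplitude was 0.24. Nodose Adm, Ramp1 and Calcrl had amplitudes of 0.26 (SE 0.125), 0.21 (SE 0.126) and 0.13 (SE 0.113), with adjusted p from 0.551 to 0.838.

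Between genotypes, arcuate Ramp2 at ZT22 is the value that brought the family into view. Ramp2 had 11.9, 9.65 and 10.4 CPM in the 3 Control libraries at ZT22, from 191, 166 and 163 counts. In the 3 HepDKO libraries it had 6.74, 7.31 and 7.29 CPM, from 116, 118 and 115 counts. All 3 HepDKO libraries lay below all 3 Control libraries, and they were the 3 lowest of the 24 arcuate libraries. The HepDKO level was 0.669 times the Control level, a log2 difference of -0.58 (SE 0.122). Leaving out single libraries gave -0.65 to -0.49. At this time the 3 libraries of each genotype did not overlap, with HepDKO lower, for 4.37% of all genes. The gene was picked for this contrast, in which it ranked 1 of 16102 genes by p, so nothing is read from that share or rank. Part of the Ramp2 gene model (chr11:101246028-101259546, + strand, GRCm38) overlaps Vps25 on the same strand, so the authors' counting may have split shared reads. Vps25 itself differed by -0.09 (SE 0.083) at ZT22.

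At the other 3 times, which the choice of Ramp2 did not use, the HepDKO level did not differ detectably. At ZT4 Ramp2 had 8.49, 8.40 and 8.24 CPM in Control and 8.88, 8.71 and 9.66 CPM in HepDKO. At ZT10 it had 9.37, 9.87 and 12.4 CPM in Control and 8.41, 9.63 and 8.43 CPM in HepDKO. At ZT16 it had 9.49, 9.49 and 9.29 CPM in Control and 8.77, 9.93 and 8.26 CPM in HepDKO. HepDKO libraries lay above Control at ZT4 and overlapped Control at ZT10 and ZT16. Averaged over ZT4, ZT10 and ZT16, the log2 difference was -0.07 (SE 0.069, edgeR's quasi-likelihood test, adjusted p = 0.786), with an interval of 2 SE either side from -0.21 to 0.07. In that average 0 of the 6 members had an unadjusted p under 0.05, beside 1309 genes (8.13%), and no gene passed after adjustment in edgeR while DESeq2 called 35. Without the library with Xist counts the average was -0.06. At ZT10 alone it was -0.26 (SE 0.119, unadjusted p = 0.0408 and adjusted p = 0.999 in edgeR). An unadjusted p under 0.05 was found for 1 of the 6 members at ZT10, beside 2.34% of all genes. The ZT10 difference was -0.12 without Control ZT10 replicate 3 and -0.22 without the library with Xist counts. The difference over all 4 times, which includes ZT22, was -0.20 (SE 0.060), and -0.19 without the library with Xist counts.

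**Figure D3:**
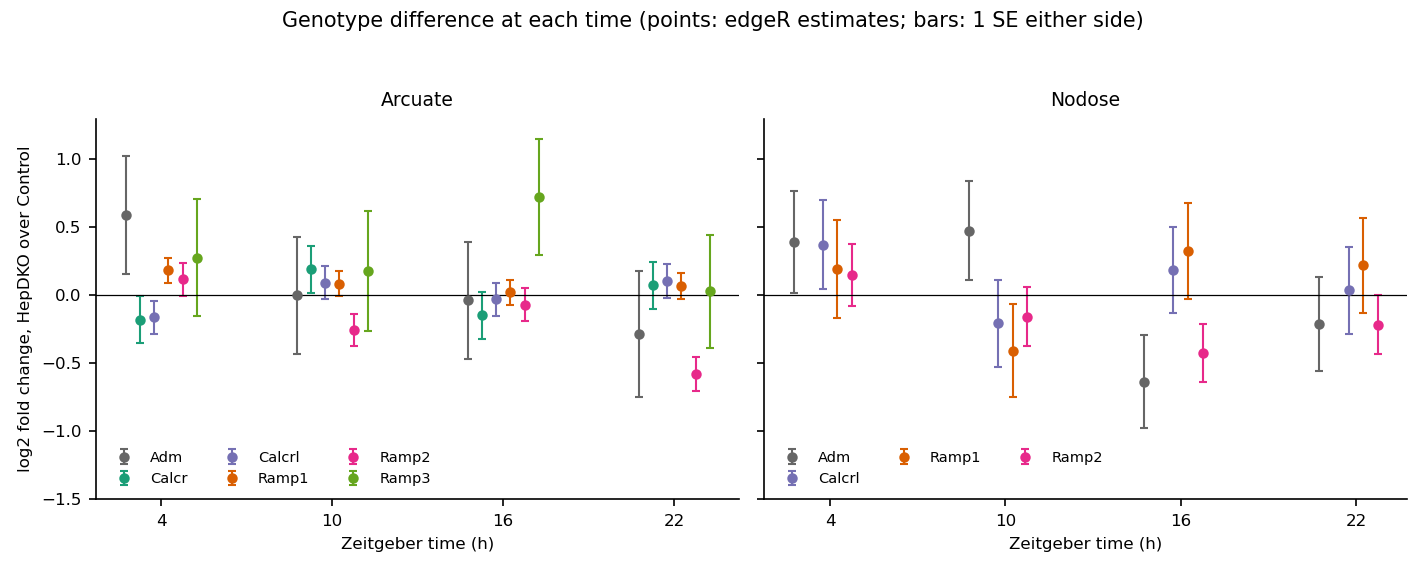
Log2 difference of HepDKO from Control for the tested members at each Zeitgeber time (h) in the arcuate nucleus and the nodose ganglia, with bars of 1 SE either side. Arcuate Ramp2 at ZT22, chosen for its size, lies at -0.58, against 0.12 at ZT4, -0.26 at ZT10 and -0.07 at ZT16.

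No gene passed adjustment at ZT22, so the marker values beside Ramp2 are descriptions. Of 73 marker genes tested, 6 lay lower in all 3 HepDKO libraries than in all 3 Control libraries, beside 4.37% of all genes, and 2 lay higher without overlap, beside 4.15%. The 6 were Myh11 and Tagln of mural cells, the neuronal genes Pomc, Th and P2rx3, and the astrocyte gene Gfap. The 2 were Emcn of endothelium and Sox10 of glia. The 7 arcuate neuron markers summed to 281 to 354 CPM in Control and to 239 to 262 CPM in HepDKO, with 5 of 7 log2 differences below 0. The 6 general neuronal markers overlapped, at 2583 to 3007 CPM in Control and 2551 to 2780 CPM in HepDKO. Lymphatic endothelial markers summed to 49.9 to 57.1 CPM in Control and to 55.3 to 59.5 CPM in HepDKO. HepDKO ZT22 replicate 1 also held 33.4 CPM of the 5 skeletal muscle markers, against at most 11.3 CPM in the other arcuate libraries, and without it Ramp2 at ZT22 differed by -0.54.

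Mural cell markers are genes of pericytes and vessel smooth muscle. At ZT22 the log2 difference was below 0 for 8 of 8 mural markers, with a median of -0.34 against -0.00 for all genes. Myh11, smooth muscle myosin, had 11.9, 11.1 and 12.6 CPM in Control and 7.32, 7.87 and 7.99 CPM in HepDKO at ZT22. Tagln, a smooth muscle actin-binding protein, had 6.47, 8.55 and 11.6 CPM in Control and 4.59, 5.02 and 6.34 CPM in HepDKO. These were the 2 of 8 mural markers whose groups did not overlap, as for 4.37% of all genes, and those of the other 6 overlapped. Rgs5 and Pdgfrb, the most abundant, averaged 75.6 and 29.1 CPM in Control and 72.5 and 27.6 CPM in HepDKO. Cnn1, the scarcest, had only 0.124 to 1.21 CPM at ZT22, and the mean log2 level used below weighs it like the others. The summed mural level was 142 to 155 CPM in Control and 127 to 139 CPM in HepDKO. By mean log2 level, Control libraries at ZT22 (3.16 to 3.44) lay above Control at ZT4 (2.78 to 2.86) and ZT16 (2.76 to 2.83). HepDKO libraries at ZT22 (2.75 to 2.99) overlapped those at ZT4 (2.76 to 2.93). The ZT22 mural difference thus came with a higher Control level and no fall in HepDKO from ZT4. HepDKO Ramp2 was lower at ZT22 (6.74 to 7.31 CPM) than at ZT4 (8.71 to 9.66 CPM). Control Ramp2 was higher at ZT22 (9.65 to 11.9 CPM) than at ZT4 (8.24 to 8.49 CPM). The 10 endothelial markers did not move together at ZT22, with 4 above 0, 6 below and a median of -0.04. With the mean log2 level of the mural markers as a covariate, added after these values were seen, Ramp2 at ZT22 differed by -0.42 (SE 0.187), and with the endothelial level by -0.61. At ZT10 the mural markers were also below 0 for 8 of 8, with a median of -0.24, and with that covariate the Ramp2 difference was -0.12. At ZT4 5 of 8 were below 0 with a median of -0.03, and at ZT16 6 of 8 with a median of -0.06. Over all 4 times 8 of 8 were below 0, with a median of -0.17. Lower in HepDKO without overlap were Abcc9, Cnn1, Kcnj8 and Rgs5 at ZT10, Rgs5 at ZT16 (as for 4.79% of all genes) and Pdgfrb at ZT4. Cnn1 lay higher without overlap at ZT4, as for 6.76% of all genes. The shares of all genes for ZT10 and for lower values at ZT4 are not given here, so nothing is read from those genes.

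Across the 24 arcuate libraries log2 Ramp2 and this mean mural level had Pearson's r = 0.525 and Spearman's rho = 0.425. These are descriptions with no test, since the ZT22 libraries chose the gene and the mural markers were taken up after their values were seen. Over the 18 libraries of the other 3 times r was 0.656 and rho 0.366. Without the 2 libraries farthest from the median mural level r was 0.374. Within Control libraries r was 0.699, and within HepDKO libraries it was -0.181. These 2 coefficients rest on 12 libraries each and include ZT22, and the difference between them was not tested. What the mural cells contribute to the Ramp2 difference was not tested beyond these values.

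**Figure D4:**
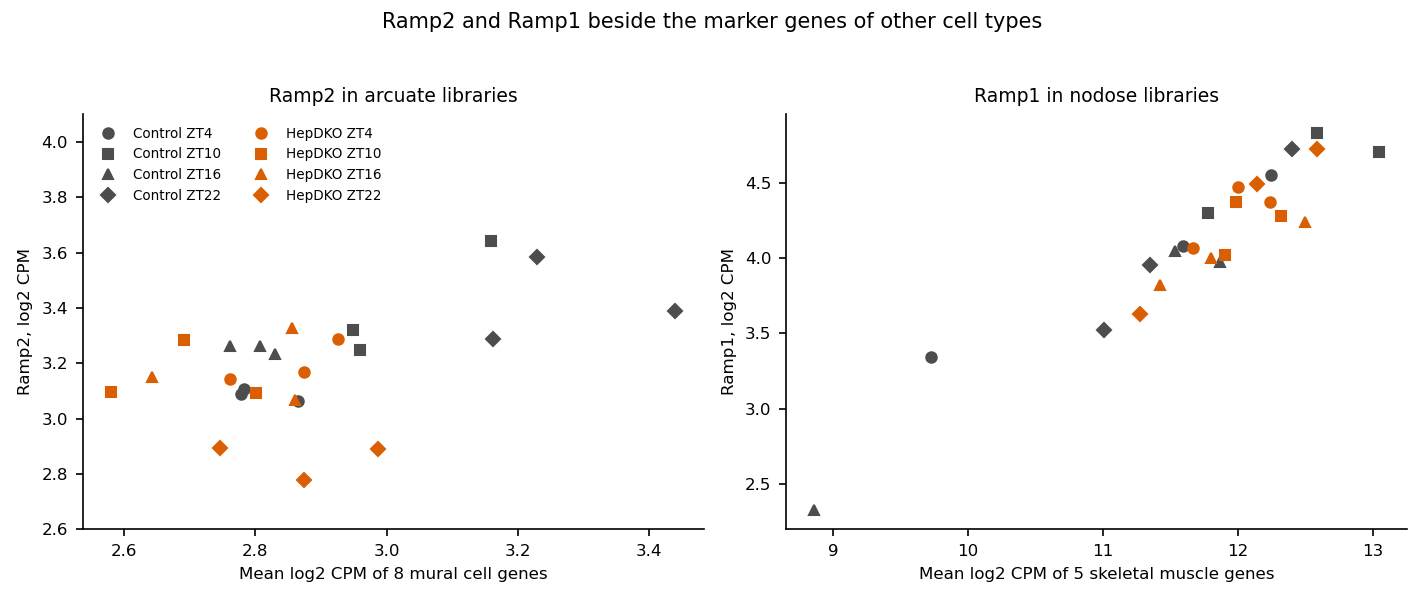
Arcuate Ramp2 against 8 mural cell markers and nodose Ramp1 against 5 skeletal muscle markers, with log2 CPM on the y axis and the mean log2 CPM of the markers on the x axis, 1 point per library (24 per tissue), colours for genotype and shapes for time. Nodose Ramp1 followed the skeletal muscle level (r = 0.943), and arcuate Ramp2 against the mural level had r = 0.525 over all libraries and -0.181 within HepDKO.

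None of the remaining 5 members passed the test between genotypes in the arcuate nucleus over the 4 times. No gene of 16102 passed in edgeR's quasi-likelihood test, while 1387 genes (8.61%) had an unadjusted p under 0.05, none of these 5 among them. DESeq2 called 23 genes and no member. The intervals of 2 SE bound the log2 differences: Calcrl 0.00 (-0.12 to 0.12), Calcr -0.01 (-0.19 to 0.16) and Ramp1 0.09 (-0.00 to 0.18). They were wider for Adm, at 0.07 (-0.37 to 0.51), and Ramp3, at 0.30 (-0.13 to 0.73). Without the arcuate library with Xist counts the differences were 0.10 for Ramp1, -0.03 for Calcr, 0.29 for Ramp3, 0.08 for Adm and 0.00 for Calcrl. Calcrl and Calcr differed by less than 0.2 on the log2 scale within these intervals, while the intervals of Ramp3 and Adm do not exclude larger differences. Leaving out 1 library moved the Ramp3 difference from 0.14 (without HepDKO ZT4 replicate 2) to 0.41 (without Control ZT22 replicate 3).

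At single times none of these 5 genes had an unadjusted p under 0.05 in the arcuate nucleus, beside 11.9% of all genes at ZT4 and 2.34, 2.73 and 3.72% at the 3 later times in order. After adjustment no gene passed at any of the 4 times in edgeR, and DESeq2 called 21 at ZT4, no member among them, and 0 at the other times. Ramp1 and Ramp2 were the members whose HepDKO libraries all lay above Control at ZT4, as for 6.76% of genes, with Ramp1 differing by 0.18 (SE 0.091, unadjusted p = 0.0559, edgeR). At ZT16 Calcr had 42.7, 51.4 and 43.8 CPM in Control and 41.8, 40.4 and 42.3 CPM in HepDKO. All HepDKO values lay below Control by a narrow margin, as for 4.79% of genes, with a log2 difference of -0.15 (SE 0.173). Ramp3 at ZT16 had 1.73, 4.16 and 5.77 CPM in Control and 6.92, 5.62 and 6.39 CPM in HepDKO. The groups overlapped by 1 library, and the log2 difference was 0.72 (SE 0.427, unadjusted p = 0.108, edgeR). Ramp3 was the most variable arcuate member, from 1.73 to 8.86 CPM, with 1 library near 8 to 9 CPM in Control ZT22, HepDKO ZT4 and HepDKO ZT22.

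Among nodose libraries none of the 4 tested members passed the test between genotypes over the 4 times. No gene of 14867 passed in edgeR's quasi-likelihood test, 497 (3.34%) had an unadjusted p under 0.05 and DESeq2 called 3. The log2 difference over all times was -0.16 for Ramp2 (SE 0.11, unadjusted p = 0.153), 0.10 for Calcrl (SE 0.160), 0.08 for Ramp1 (SE 0.176) and 0.01 for Adm (SE 0.174). No member had an unadjusted p under 0.05 at any time, beside 2.36% of all genes at ZT4 and 2.04, 4.94 and 5.25% at the 3 later times in order. No gene passed after adjustment at any of the 4 times in edgeR or in DESeq2. Without the nodose library with Xist counts the log2 differences over all times were 0.07 for Ramp1, -0.18 for Ramp2, 0.11 for Calcrl and 0.04 for Adm. At ZT22, the time chosen in the arcuate nucleus, nodose Ramp2 had 44.4, 24.8 and 26.1 CPM in Control and 28.9, 21.8 and 31.9 CPM in HepDKO. The groups overlapped and differed by -0.22 (SE 0.219). At ZT16 nodose Ramp2 had 36.6, 42.2 and 42.8 CPM in Control and 22.8, 38.3 and 29.3 CPM in HepDKO, the groups overlapped and the difference was -0.42 (SE 0.216, unadjusted p = 0.0617, edgeR). At ZT16 nodose Adm had 7.63, 6.71 and 6.45 CPM in Control and 3.75, 6.34 and 3.43 CPM in HepDKO. The HepDKO values lay below Control without overlap, as for 8.18% of genes, with a log2 difference of -0.64 (SE 0.343, unadjusted p = 0.0768, edgeR). Nodose Adm rests on 4 to 80 counts per library.

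The genotype difference itself was compared between tissues in 1 fit of all 48 libraries. No gene of 17478 passed in edgeR's quasi-likelihood test, 827 (4.73%) had an unadjusted p under 0.05 and DESeq2 called 12. For members that passed the filter in both tissues, the nodose minus arcuate difference in the genotype effect was -0.02 for Ramp1 (SE 0.174), 0.08 for Calcrl (SE 0.174) and -0.07 for Adm (SE 0.288). That of Ramp2 was 0.03 (SE 0.126) and is a description, since its arcuate effect includes ZT22.

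Nodose Ramp1 moved with the skeletal muscle markers of the library. It ranged from 4.69 CPM in Control ZT16 replicate 3 to 28.1 CPM in Control ZT10 replicate 2. Over 24 libraries its log2 level and the mean log2 level of 5 skeletal muscle markers had r = 0.943 and rho = 0.893 (permutation p = 1e-05 for each, the smallest that the permutations can give, adjusted 0.0003). Without the 2 libraries farthest from the median r was 0.887, within Control 0.964 and within HepDKO 0.849. The 3 genes most like nodose Ramp1 among 14866 were Fitm1 (r = 0.955), Tnnt3 (0.952), a fast muscle troponin that is also 1 of the 5 markers, and Myoz1 (0.949). With the muscle and adipocyte levels as covariates the genotype difference of nodose Ramp1 was -0.10. What muscle contributes to nodose Ramp1 was not tested beyond these values.

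Nodose Adm moved with endothelial markers, with r = 0.611 (permutation p = 0.00157, adjusted 0.0235) and rho = 0.60 (permutation p = 0.00237, adjusted 0.0355). Without the 2 farthest libraries r was 0.543, and it was 0.652 within Control and 0.660 within HepDKO. Nodose Calcrl had r = 0.510 (adjusted permutation p = 0.0616) and rho = 0.530 (adjusted permutation p = 0.0712) with the same markers, 0.910 within Control and 0.153 within HepDKO. Nodose Ramp2 had r = 0.316 (adjusted permutation p = 0.299) and rho = 0.390 (adjusted permutation p = 0.207) with them, 0.154 within Control and 0.640 within HepDKO. Nodose Ramp1 had r = 0.458 (adjusted permutation p = 0.094) and rho = 0.417 (adjusted permutation p = 0.166). With mural markers nodose Adm had r = 0.50 (adjusted permutation p = 0.0616) and rho = 0.520 (adjusted permutation p = 0.0712). For Ramp1, Calcrl and Ramp2 the r with mural markers was 0.506, 0.460 and 0.351 (adjusted permutation p = 0.0616, 0.094 and 0.257). Their rho was 0.337, 0.453 and 0.436 (adjusted permutation p = 0.324, 0.165 and 0.166). Among these nodose relations to vessel markers only that of Adm with endothelial markers passed adjustment, which was over 30 relations of both tissues.

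Other genes with the most similar pattern over the 24 libraries of a tissue, by Pearson's r of log2 CPM, are a description and share library depth and dissection with the members. In the arcuate nucleus they were Asb4 (0.865), Gabrq (0.855) and Gabre (0.842) for Calcr. For Ramp1 they were Gstm5 (0.857), Igsf8 (0.855) and Uqcr11 (0.848). For Ramp3 they were Stum (0.891), Shox2 (0.844) and Tcf7l2 (0.838), and for Ramp2 Map3k6 (0.766), Ttk (0.723) and Anxa3 (0.722). Calcrl was most like Wdr86 (0.751), Oaf (0.675) and Ptges (0.657), and Adm most like Lmna (0.765), Mrps11 (0.751) and Dtx2 (0.751). Nodose Ramp2 was most like Jcad (0.833), Adarb1 (0.802) and Pja1 (0.785). Nodose Calcrl was most like Arl15 (0.854), Igf1 (0.828) and Nudt4 (0.815), and nodose Adm most like Galnt15 (0.838), Npr1 (0.791) and Barx1 (0.772). By the first gene of each member, the arcuate coefficients were highest for Ramp3 and Calcr and lowest for Calcrl.

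Apart from most ligands, much of the wider pathway passed the filter on low counts in both tissues. No gene of it was called for genotype, in edgeR's quasi-likelihood tests or in DESeq2. Over the 4 times, no pathway gene tested in the arcuate nucleus had an unadjusted p under 0.05, beside 8.61% of all genes. In the nodose ganglia 1 of the 10 related receptors tested did, Gper1, beside 3.34% of all genes. Of 6 genes that process or break down peptides, 6 passed the filter in the arcuate nucleus, led by Cpe (1918 CPM), Pam (507), Pcsk2 (206) and Pcsk1 (103). In nodose tissue 4 passed, led by Pam (375 CPM), the enzyme that amidates peptides such as CGRP and adrenomedullin, and Mme (268), the protease neprilysin. The 8 signalling partners passed in both tissues, led by Gnas, the stimulatory G protein subunit, at 2269 CPM in the arcuate nucleus and 655 CPM in the nodose ganglia. Crcp, a CGRP receptor component, had 27.4 and 11.9 CPM. Of 14 other RAMP-binding or related receptors 13 passed in the arcuate nucleus and 10 in the nodose ganglia. In edgeR's rhythm test 1 of these 13 was called in the arcuate nucleus, beside 3.86% of all genes, and 1 of these 10 in the nodose ganglia, beside 1.33%. With 1 call in each tissue, the counts are read as no more than the background. Pth1r, the parathyroid hormone receptor, had an arcuate rhythm with an amplitude of 0.24 (SE 0.055, adjusted p = 0.0311) and a peak at ZT3.07. Adcyap1r1, the receptor for PACAP, had a nodose rhythm with an amplitude of 0.34 (SE 0.063, adjusted p = 0.0147) and a peak at ZT1.26. No other gene of these lists passed the rhythm test in edgeR, while DESeq2 also called Arrb1 in the arcuate nucleus and Casr in the nodose ganglia. The lowest p for genotype over 4 times was that of Glp1r, the GLP-1 receptor, in the arcuate nucleus (adjusted p = 0.579) and of Gper1 in the nodose ganglia (adjusted p = 1.00).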

How the data were processed

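RNA of 48 pooled libraries (24 of each tissue, 3 per group) was measured by RNA sequencing. The deposited table gives raw read counts per gene symbol, which the authors made from reads trimmed with Trim Galore 0.6.10, checked with FastQC 0.11.7 and aligned to mm10 with STAR 2.7.10b, per the submitters' processing notes. The tool that counted reads, its strand setting and its annotation are not given in the sources used here, so reads of overlapping genes (Ramp2 with Vps25, Adm with the antisense Gm28863) may be shared or split.

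Counts were analysed in R 4.3.3 with edgeR 4.0.16. Genes passed filterByExpr on the groups (16102 in the arcuate nucleus, 14867 in the nodose ganglia, 17478 over both), libraries were scaled by TMM within tissue (all 48 together for the tests between tissues), and a robust quasi-likelihood fit held 1 mean for each group. 18 tests were run across genes, each with Benjamini-Hochberg adjustment over all genes tested and a threshold of 0.05. The rhythm test is that of the 24-h cosine and sine contrasts of the 4 group means. Amplitudes and rhythm differences are the joint length of these contrasts and have no sign, with the SE taken along the fitted direction. Intervals are 2 SE either side. For correlations log2 CPM had a prior count of 2, permutation tests used 100000 resamples, and marker levels are the mean log2 CPM of a list. Transcript lengths came from the longest RefSeq-linked transcript of each gene, and gene coordinates from GENCODE M21 on GRCm38. The fits were tested on simulated data.

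The alternatives were DESeq2 1.42.0, RLE scaling, no filter on low counts, the replicate number as a block, fewer libraries or an additive model, marker levels as covariates (that of mural cells added after the data were seen), the length of the union of exons (also added) and leaving out each library in turn. The members were named in every comparison. A pathway gene was named where its adjusted p was under 0.05, or else as the lowest p or the highest level of its list, and the 3 genes with the highest r were named as most like a member. The members, the pathway lists and the marker lists were chosen with earlier results of these data known. Every pair of libraries within a group differed by more than counting noise (lowest chi-square per degree of freedom 2.89 in the arcuate nucleus and 8.12 in the nodose ganglia), so none was counted as a repeat. The labels give the groups shared replicate numbers without saying what they mark. The numbers were not taken to pair libraries. Correlations of same-numbered deviations were -0.128 to 0.0770 in the arcuate nucleus, with 0 of 12 over 0.1. In the nodose ganglia they were -0.206 to 0.364, with 7 of 12 over 0.1. Some pairing within a time thus remains possible in the nodose ganglia and was not modelled.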

Additional observations from a re-analysis of the deposited data

How the results depend on the processing

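Of 122 counts of called genes under alternatives other than leaving out a library, 108 stayed within 1.5 times the main count. Most of these counts were 0 in the main fit, so that number says little about how stable the calls are. Of 270 member values 257 kept their direction, their side of the threshold and, for Ramp2 at ZT22, a value within 1 SE. The cause of the other changes was not tested. DESeq2 called 23 genes for the arcuate genotype difference over 4 times, 35 over ZT4, ZT10 and ZT16, 21 at ZT4 and 1 for the rhythm difference, 3 for the nodose difference over 4 times and 12 for the tissue difference in the genotype effect, each against 0 in edgeR. It called 1117 arcuate and 383 nodose genes rhythmic, against 622 and 198. An additive model gave 1 gene for the arcuate difference over 4 times, no filter on low counts 7 over ZT4, ZT10 and ZT16, and the 6 ZT10 libraries alone 4. With the endothelial covariate 400 arcuate and 360 nodose genes were rhythmic, and with the mural covariate 305 nodose genes were. With the replicate number as a block, 677 arcuate and 190 nodose genes were rhythmic, Ramp2 at ZT22 differed by -0.58, and no genotype test called a gene. The replicate block changed no other call.

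Genotype differences near 0 changed sign. Calcr in the arcuate nucleus was 0.024 with the mural covariate, and Calcrl was -5.9e-05 with RLE scaling. Nodose Ramp1 was -0.10 with the muscle and adipocyte covariates. Nodose Adm was -0.024 with the additive model, -0.0070 in DESeq2, -0.056, -0.016 and -0.083 with the endothelial, mural, and muscle and adipocyte covariates, -0.0036 with no filter and -0.0087 with RLE scaling. Arcuate Ramp2 at ZT22 was -0.42 with the mural covariate.

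Leaving out each library in turn gave 0 to 7 genes for the arcuate genotype difference over 4 times, with 7 without HepDKO ZT4 replicate 1, 6 without Control ZT22 replicate 2, 2 without HepDKO ZT4 replicate 3 and 1 without Control ZT4 replicate 3 or HepDKO ZT16 replicate 3. It gave 0 to 28 over ZT4, ZT10 and ZT16 (28 without HepDKO ZT4 replicate 1, 1 without replicate 2), 0 to 3 at ZT4 (3 without HepDKO ZT4 replicate 1) and 0 to 5 at ZT22 (5 without Control ZT22 replicate 3). Rhythmic genes numbered 287 (without HepDKO ZT16 replicate 2) to 1031 (without HepDKO ZT4 replicate 2) in the arcuate nucleus. The other arcuate libraries that moved that count by over 1.5 times gave 352 and 366 without Control ZT4 replicates 1 and 3, 306 and 374 without Control ZT16 replicates 2 and 3, 387 without HepDKO ZT16 replicate 3 and 971 without HepDKO ZT4 replicate 3. In the nodose ganglia they numbered 129 (without HepDKO ZT16 replicate 3) to 276 (without HepDKO ZT22 replicate 3), and 130 without Control ZT4 replicate 2. Nodose genotype calls numbered 0 to 1 over 4 times (1 without Control ZT4 replicate 2) and 0 to 1 at ZT10 (1 without HepDKO ZT10 replicate 1). Calls for the tissue difference in the genotype effect numbered 0 to 8, with 8 without nodose HepDKO ZT22 replicate 3 and 1 without arcuate HepDKO ZT4 replicate 1 or nodose Control ZT4 replicate 1, Control ZT4 replicate 3 or HepDKO ZT4 replicate 2. Member differences that changed sign ranged from -0.065 to 0.025 for arcuate Calcr, -0.022 to 0.029 for Calcrl, -0.061 to 0.23 for arcuate Adm and -0.089 to 0.11 for nodose Adm. For the tissue difference in the genotype effect they ranged from -0.10 to 0.061 for Ramp1, -0.025 to 0.12 for Ramp2, -0.15 to 0.24 for Ramp3 and -0.23 to 0.056 for Adm. With the length of the union of exons, an alternative added after the data were seen, the median CPM per kb was 13.0 for arcuate Ramp1, 2.75 for arcuate Ramp2 and 8.50 for nodose Ramp2, and the other 9 medians moved by less than 1 SD. Depth limits Adm (9 to 39 counts an arcuate library, 4 to 80 a nodose library), and Calcr and Ramp3 in the nodose ganglia.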
